A study of Mus musculus with 2 samples.

Results

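Gpnmb macrophages without Mmp12 are cells of injured mouse muscle that carry transcripts of *Gpnmb* and hardly any of *Mmp12*. They were chosen by their UMIs (unique molecular identifiers, counted transcripts): a cell barcode had at least 3000 UMIs, at most 20% of them mitochondrial, 2 or more from *Gpnmb* and at most 1 from *Mmp12*. Further limits took away other macrophage states. *Folr2* and *Cbr2* together had at most 1 UMI, the stress genes *Cxcl1*, *Cxcl2*, *Hmox1* and *Gdf15* stayed under 30 per 10000 UMIs, the MHC class II genes *H2-Aa*, *H2-Ab1*, *H2-Eb1* and *Cd74* under 200, and the interferon genes *Ifit1*, *Ifit2*, *Ifit3*, *Rsad2* and *Cxcl10* under 10. The cell-cycle genes *Mki67*, *Top2a*, *Cdk1*, *Birc5* and *Ube2c* had at most 3 UMIs in sum, and the collagen genes *Col1a1*, *Col3a1* and *Col1a2* at most 4. Of 6724 barcodes in the series 425 met every limit, 276 in the Gata3KO library and 149 in the Wt library.

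The Gata3KO library came from mice in which Cre recombinase under the *Cx3cr1* gene removes floxed *Gata3* (C57BL/6:Cx3cr1CRExGata3fl/fl), which acts in monocytes, macrophages and any other cell that uses *Cx3cr1*. The Wt library came from C57BL/6 mice, so the Cre and the floxed allele were present in Gata3KO alone. Both had 50 µl of 10 µM cardiotoxin, a membrane-lysing snake venom toxin, injected into the tibialis anterior muscle, and on day 4 live CD45+ CD11b+ cells without the neutrophil protein Ly6G were sorted and 8000 were loaded for droplet sequencing of 3' ends. The sources used here give no age, no sex and no number of animals per library. The series title places the comparison in a study of IL-33, macrophage metabolism and the end of inflammation. Each genotype is 1 library, so no result below has a test or a replicate behind it. Cells are not replicates, every interval covers counting error at the 95% level only, and a difference between the libraries cannot be told apart from one between animals or preparations.

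Gpnmb is a transmembrane glycoprotein of endosomes and lysosomes that macrophages make while they digest dead cells and lipid. Macrophages with *Gpnmb*, *Spp1*, *Fabp5* and *Trem2* are known from injured, fatty and tumour tissue as lipid-associated or scar-associated macrophages, and in regenerating muscle such cells clear fibre debris and release growth factors. Mmp12, the macrophage metalloelastase, is a secreted protease that a subset of such cells makes.

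The Gata3KO library held 3434 barcodes and 19422237 UMIs, and the Wt library 3290 barcodes and 15392330 UMIs. The UMI and mitochondrial limits left 1004 barcodes in Gata3KO (29.2%) and 1119 in Wt (34.0%). The libraries shared 2 barcode sequences, 0 of them among the Gpnmb macrophages without Mmp12. Scrublet called 2 of 1489 barcodes in Gata3KO and 3 of 1303 in Wt as doublets, 1 of them in each library among the Gpnmb macrophages, and they were left in.

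Gpnmb macrophages without Mmp12 took a larger share of the Gata3KO library. They were 27.5% of the barcodes within the UMI and mitochondrial limits in Gata3KO (276 of 1004, exact Clopper-Pearson interval 24.7 to 30.4%) and 13.3% in Wt (149 of 1119, 11.4 to 15.4%), a difference of 14.2 percentage points. Barcodes with 2 or more *Gpnmb* UMIs were commoner in Gata3KO, with 678 of 1004 in Gata3KO (67.5%) against 448 of 1119 in Wt. Within those, the Gpnmb macrophages without Mmp12 were 40.7% in Gata3KO and 33.3% in Wt. *Mmp12* at 2 or more UMIs was rare beside *Gpnmb* in both libraries, with 53 barcodes in Gata3KO (7.82%) and 27 in Wt (6.03%). Because several limits are counts of UMIs, the rule reads deep and shallow barcodes differently. With every barcode thinned to 3000 UMIs before the rule was applied, the share was 32.5% in Gata3KO and 13.9% in Wt.

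The limits turned away different barcodes in the 2 libraries. Of the barcodes with enough *Gpnmb* and at most 1 *Mmp12* UMI (625 in Gata3KO and 421 in Wt), 3.84% in Gata3KO and 21.9% in Wt exceeded the interferon limit and were left out. The stress limit took out 16.3% in Gata3KO and 6.89% in Wt, the *Folr2* and *Cbr2* limit 37.1% and 40.1%, MHC class II 4.96% and 9.74%, the cell cycle 8.48% and 10.5%, and collagen 0.640% and 1.19%. At the edge of the rule, 33 Gata3KO and 34 Wt barcodes had exactly 2 *Gpnmb* UMIs, while just outside it 67 Gata3KO and 53 Wt barcodes had 1 and 78 Gata3KO and 170 Wt barcodes had 0. At the *Mmp12* edge 263 Gata3KO and 145 Wt barcodes had 0 UMIs and 13 Gata3KO and 4 Wt barcodes had 1, and just outside 6 Gata3KO and 3 Wt barcodes had 2.

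The Gpnmb macrophages summed to 2444824 UMIs in Gata3KO (3021 to 34557 per barcode, median 6022.5) and to 1040975 in Wt (3008 to 25959, median 5575). They had a median of 1972.5 genes in Gata3KO and 1846 in Wt, and a median mitochondrial share of 12.7% in Gata3KO and 11.1% in Wt. They were shallower than the other barcodes within the limits, whose median was 10889.5 UMIs in Gata3KO and 7109 in Wt. Single barcodes ran from 1.09 to 120 *Gpnmb* UMIs per 10000 in Gata3KO (median 17.5) and from 1.04 to 84.4 in Wt (median 9.83). The ranges overlapped over most of their width, and the plot of *Gpnmb* among the barcodes shows the Gata3KO ones shifted to the upper ranges. Of the Gata3KO barcodes 20.3% lay at 40 or more per 10000, and of the Wt barcodes 6.71%.

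**Figure D1:**
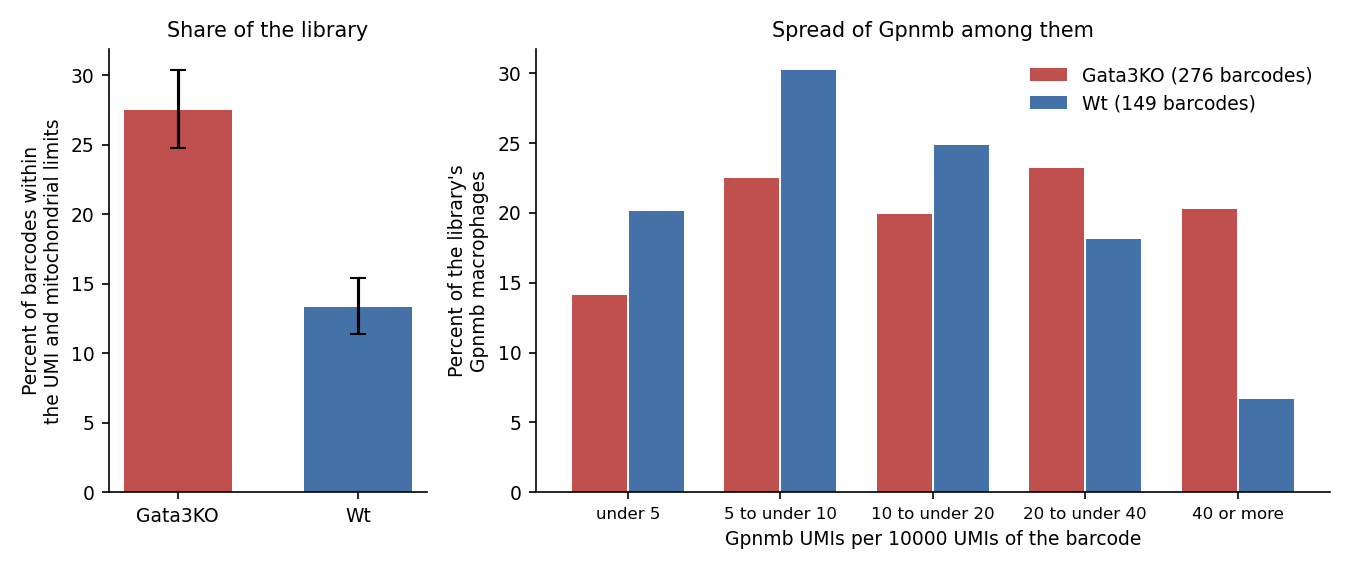
Left, percent of the barcodes within the UMI and mitochondrial limits that were Gpnmb macrophages without Mmp12, with exact 95% binomial intervals (27.5% in Gata3KO, 13.3% in Wt). Right, percent of each library's Gpnmb macrophages in 5 ranges of *Gpnmb* UMIs per 10000 UMIs, where 40 or more held 56 Gata3KO and 10 Wt barcodes.

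The cells carried macrophage transcripts in both libraries. The complement genes *C1qa*, *C1qb* and *C1qc*, made by mature macrophages, had 2 or more UMIs in 90.9% of the Gata3KO barcodes (exact interval 86.9 to 94.1%) and 98.0% of the Wt barcodes (94.2 to 99.6%). The receptors and lysosomal protein of *Adgre1*, *Csf1r*, *Cd68*, *Fcgr1* and *Mertk* did so in 96.0% of the Gata3KO and 95.3% of the Wt barcodes, at median depths of 6022.5 and 5575 UMIs. In mature dendritic cells (barcodes with 2 or more UMIs each of *Ccr7* and *Fscn1*), which should lack them, the same 5 genes reached that in 0 of 4 Gata3KO and 14 of 37 Wt barcodes, at median depths of 11284.5 and 11384 UMIs, and the complement genes in 2 of 4 and 18 of 37. Dendritic cell genes (*Flt3*, *Zbtb46*, *Cd209a*, *Ccr7*, *Fscn1*) had 2 or more UMIs in 0 of 276 Gata3KO and 0 of 149 Wt barcodes (exact upper limits 1.33% and 2.45%), and no barcode had more than 1. The rule largely sets this result. Mature dendritic cells had a median of 0.5 *Gpnmb* UMIs in Gata3KO and 0 in Wt. Their *Cd74*, which the rule limits, stood at 15495 CPM in Gata3KO and 14069 in Wt. Most of them are thus taken out beforehand, and the 0 is no test of identity. The monocyte genes *Ly6c2*, *Ccr2* and *Plac8* together had 2 or more UMIs in 42.4% of Gata3KO and 43.0% of Wt barcodes, but also in 18 of 37 Wt mature dendritic cells (48.6%), so that share sets the cells apart from none of them.

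Of the lists of other cell types, dendritic cell, T and NK cell, fibroblast and endothelial, erythroid and mast cell genes had no member at 20 CPM (UMIs of a gene per 1000000 UMIs of all genes, summed over the barcodes). Only genes present in both libraries were read. These were 7 of 7 dendritic cell, 6 of 6 fibroblast and endothelial, 5 of 6 neutrophil and 2 of 5 B cell genes. Of T and NK cell genes 2 of 7 were read, of erythroid genes 1 of 4, and of mast cell, basophil and eosinophil genes 1 of 6. The lists with few genes read say little about those cell types. The 7 dendritic cell genes summed to 4.09 CPM in Gata3KO, with 2 at 0, and to 14.4 in Wt, with 1 at 0. The T and NK cell genes summed to 3.27 CPM in Gata3KO and 11.5 CPM in Wt, the fibroblast and endothelial genes to 16.4 and 26.9, the mast cell, basophil and eosinophil genes to 0.409 and 0.961, and the erythroid genes to 0 and 0.961. Neutrophil genes summed to 131 CPM in Gata3KO and 139 in Wt, and B cell genes to 73.2 and 85.5, nearly all from *Ighm*. Muscle transcripts stood apart. The 7 muscle genes summed to 136 CPM in Gata3KO and to 659 in Wt, 6 of 6 measured were past 2-fold lower in Gata3KO (median log2 ratio -2.19), and *Pax7* was at 0 in both libraries. Of all genes at 20 CPM, 2.76% were 2-fold or more lower in Gata3KO.

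The 5 marker genes of the label were set beside barcodes that met the other limits but had at most 1 *Gpnmb* UMI (145 in Gata3KO and 223 in Wt, called low-Gpnmb barcodes here). *Gpnmb* itself is fixed by the rule, so its difference is no finding, and the other 4 were read in the same cells that the rule chose, so they are a description. *Gpnmb* stood at 3029 CPM in Gata3KO (exact Poisson interval 2960 to 3099) and 1630 in Wt (1554 to 1710), against 86.1 in Gata3KO and 46.5 in Wt low-Gpnmb barcodes. *Syngr1*, a vesicle membrane protein, stood at 455 CPM in Gata3KO and 305 in Wt, against 41.1 and 56.1 CPM in low-Gpnmb barcodes. *Hebp1*, a haem-binding protein, stood at 120 CPM in Gata3KO and 81.7 in Wt, against 32.1 and 36.8 CPM. *Npl*, a lyase of sialic acid breakdown, was scarce at 19.6 CPM (48 UMIs) in Gata3KO and 21.1 CPM (22 UMIs) in Wt, against 14.1 and 6.14 CPM. *Selenop*, the selenium carrier, was abundant at 1577 CPM in Gata3KO and 1137 CPM in Wt, against 1030 and 703 CPM. All 4 were thus higher than in low-Gpnmb barcodes in both libraries, *Npl* on few UMIs and with overlapping intervals in Gata3KO.

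Barcodes with *Folr2* or *Cbr2* (2 or more UMIs together, at most 1 of *Mmp12*, no limit on *Gpnmb* and the remaining limits as above, 190 in Gata3KO and 121 in Wt) carried more *Npl*, at 79.4 CPM in Gata3KO and 63.0 in Wt, and more *Selenop*, at 2231 CPM in Gata3KO and 2146 in Wt. They also had as much *Gpnmb*, at 2877 CPM in Gata3KO and 1764 in Wt, and more *Syngr1*, at 638 and 475 CPM. None of the 5 genes was higher in the Gpnmb macrophages without Mmp12 than with *Folr2* or *Cbr2* in both libraries. The few barcodes with *Mmp12* (16 in Gata3KO and 8 in Wt) had 3771 CPM of *Gpnmb*, 845 of *Syngr1* and 323 of *Hebp1* in Gata3KO and 2584, 207 and 29.6 CPM in Wt.

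**Figure D2:**
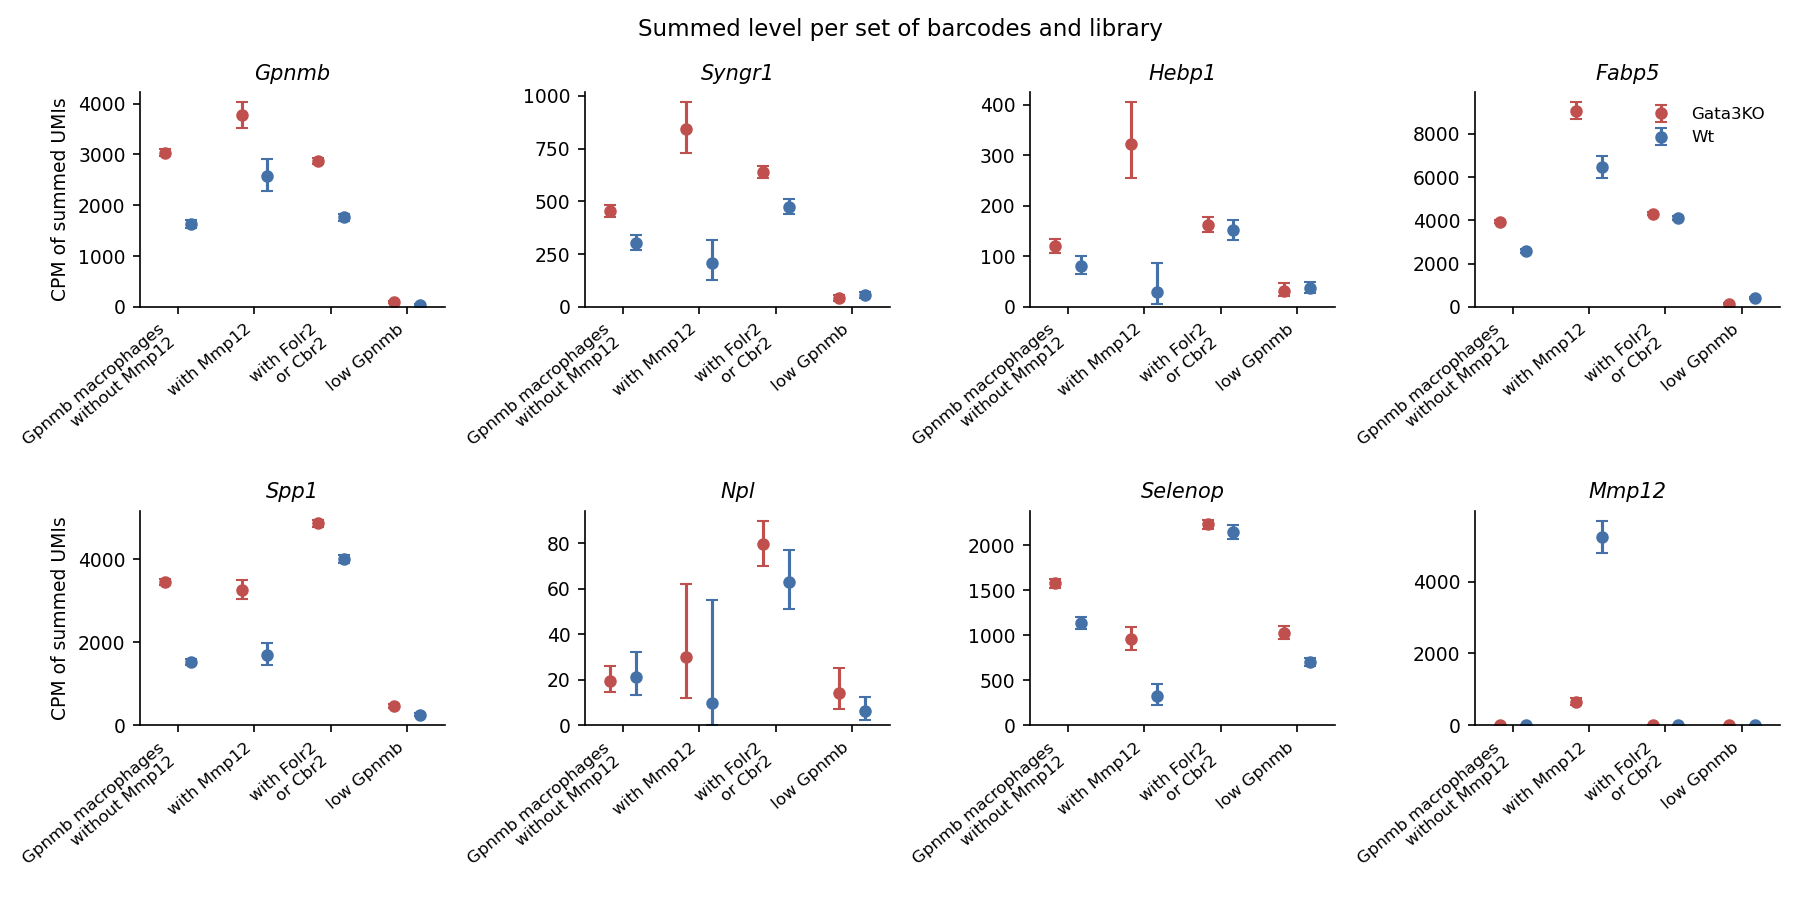
CPM of summed UMIs for 8 genes in 4 sets of barcodes, Gata3KO in red and Wt in blue, bars giving exact 95% Poisson intervals. *Gpnmb*, *Syngr1*, *Fabp5* and *Spp1* are lowest in the low-Gpnmb set, *Npl* and *Selenop* are highest with *Folr2* or *Cbr2*, and *Mmp12* is seen in the set chosen for it.

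*Gpnmb* lies on the plus strand of chromosome 6 at 49036546 to 49070929 in mm10. Its promoter is printed because the gene defines the cells. The 300 bases from 250 before to 50 after the start (RefSeq, GRCm38.p6, chr6:49036268-49036567, plus strand) hold 1 match to the AP-1 motif TGACTCA, searched on both strands and shown in capitals, whose first base is position 9 counted from RefSeq's start, which lies upstream of the annotated start just given. Of 27025 genes with a promoter in the table, 5.95% have that motif in the same window, and a match is a description, not a site.

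Gpnmb: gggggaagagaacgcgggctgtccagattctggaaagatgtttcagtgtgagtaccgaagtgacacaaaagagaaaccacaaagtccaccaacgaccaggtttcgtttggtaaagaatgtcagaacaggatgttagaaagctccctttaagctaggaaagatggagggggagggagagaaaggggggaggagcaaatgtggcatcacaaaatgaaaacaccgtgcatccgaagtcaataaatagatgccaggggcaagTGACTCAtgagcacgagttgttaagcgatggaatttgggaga

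*Gata3* could not be checked in these cells, since 1 UMI was counted in Gata3KO and 1 in Wt, and tags from the 3' end can lie outside a floxed part. *Cx3cr1*, which drives the Cre and encodes the fractalkine receptor, stood at 363 CPM in Gata3KO and 269 in Wt.

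Between the genotypes, the Gpnmb macrophages of Gata3KO had more *Chil3*, *Gdpd3*, *Il1b* and *Ifi27* and far less of other interferon-induced genes and of muscle transcripts. *Spp1* was higher in sum too, but its log2 ratio fell as low as 0.32 under other processing choices. In the lowest 2 ranges of *Gpnmb* it was lower in Gata3KO. Counted were 3010 genes that reached 50 CPM in either library and 50 UMIs in all. Of these, 35 were 2-fold or more higher in Gata3KO (1.16%) and 88 were 2-fold or more lower (2.92%), and the median log2 ratio was 0.09. All 123 had an interval on 1 side of 0. The 2-fold and 50-UMI limits make that likely beforehand, and the intervals leave out the spread between cells, so it adds no support. Counts of this kind describe 2 libraries and not 2 genotypes.

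**Figure D3:**
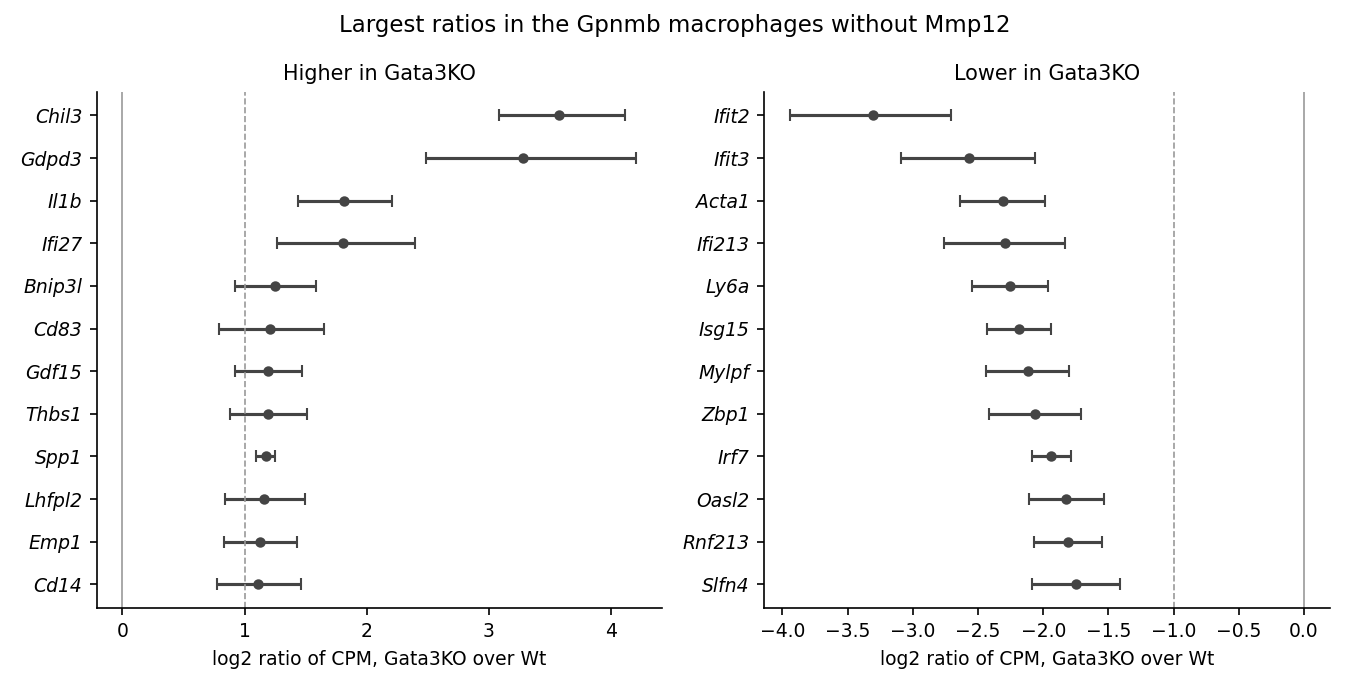
The 12 largest log2 ratios of CPM each way, Gata3KO over Wt, with exact 95% intervals (counting error only) and dashed lines at 2-fold. *Chil3* and *Gdpd3* lie furthest to the higher side, and *Ifit2* and *Ifit3* furthest to the lower side.

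*Chil3*, the secreted chitinase-like lectin Ym1 that marks alternatively activated macrophages and some monocytes, showed the largest ratio. It stood at 389 CPM in Gata3KO (952 UMIs) and 32.7 in Wt (34 UMIs), a log2 ratio of 3.58 (exact conditional binomial interval 3.08 to 4.11). In Gata3KO 122 of 276 barcodes had a *Chil3* UMI, and in Wt 13 of 149, with 35.3% of the Wt UMIs in 1 barcode. Thinned to 2000 UMIs, 26.4% of Gata3KO barcodes had a *Chil3* UMI (21.3 to 32.1%) and 4.03% of Wt barcodes (1.49 to 8.56%), against 0 of 37 Wt mature dendritic cells. Low-Gpnmb barcodes differed the same way, with 184 CPM in Gata3KO and 27.2 in Wt.

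The *Chil3* promoter is shown because Gata3 binds the core letters GATA and *Chil3* has the largest ratio. Its window (chr3:106167515-106167814, minus strand, same source) holds 1 TGATAA and 1 AGATAA, each searched on both strands and in capitals, the second read here as TTATCT, with first bases 139 and 122 before the start. TGATAA is found in 10.4% and AGATAA in 12.7% of all promoters of the table. Nothing here shows that either is bound.

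Chil3: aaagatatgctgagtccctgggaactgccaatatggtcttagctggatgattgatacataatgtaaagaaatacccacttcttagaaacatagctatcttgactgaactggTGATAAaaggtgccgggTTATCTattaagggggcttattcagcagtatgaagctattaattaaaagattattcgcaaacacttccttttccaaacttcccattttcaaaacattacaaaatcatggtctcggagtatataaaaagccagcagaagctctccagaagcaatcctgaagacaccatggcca

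*Gdpd3*, a lysophospholipase D that makes lysophosphatidic acid, stood at 121 CPM in Gata3KO (297 UMIs in 131 barcodes) and 12.5 in Wt (13 UMIs in 9 barcodes), a log2 ratio of 3.28 (2.49 to 4.21). *Il1b*, the inflammatory cytokine interleukin 1 beta, stood at 219 CPM in Gata3KO and 62.4 in Wt (log2 ratio 1.81, 1.44 to 2.21). *Ifi27*, a mitochondrial protein that interferons induce, was higher against the direction of the other interferon genes, with 104 CPM in Gata3KO and 29.8 in Wt (1.81, 1.27 to 2.40). In all 4 genes 99 or more Gata3KO barcodes had a UMI, though 1 barcode gave 13.4% of the *Il1b* UMIs in Gata3KO and 1 gave 20% in Wt.

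*Spp1*, the secreted matrix protein osteopontin, was the most abundant of the 12 higher genes, at 3451 CPM in Gata3KO and 1531 in Wt (log2 ratio 1.17, 1.09 to 1.25). The other 7 had log2 ratios between 1.11 and 1.25. They were *Bnip3l*, a receptor for mitophagy, *Cd83*, an activation antigen, *Gdf15*, a stress cytokine that the rule itself limits, *Thbs1*, thrombospondin 1, *Lhfpl2*, *Emp1* and the endotoxin co-receptor *Cd14*. None of these 8 held 2-fold under every alternative: the lowest log2 ratio was 0.32 for *Spp1*, 0.73 for *Bnip3l*, 0.76 for *Gdf15*, 0.77 for *Lhfpl2*, 0.78 for *Cd14*, 0.83 for *Emp1*, 0.86 for *Thbs1* and 0.87 for *Cd83*. *Chil3*, *Gdpd3*, *Il1b* and *Ifi27* kept at least 2-fold under all 15 that bear on single genes.

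The interferon list was lower in Gata3KO, although the rule had already taken away the barcodes with the most *Ifit* and *Cxcl10* transcripts in both libraries. Of the 31 measured genes of this list outside the rule, 0 were higher and 26 were past 2-fold lower, with a median log2 ratio of -1.55 (95% order-statistic interval over genes -1.80 to -1.23). *Ifi27*, which interferons induce and which was higher in Gata3KO (log2 ratio 1.81), is not on this list. The list was chosen with earlier results of these data known. For comparison, 57% of all 5986 genes at 20 CPM were higher in Gata3KO, 1.39% were 2-fold or more higher, 2.76% were 2-fold or more lower and their median was 0.06. *Irf7*, the regulator that amplifies interferon production, stood at 239 CPM in Gata3KO and 915 in Wt (log2 ratio -1.94, -2.09 to -1.79). *Isg15*, a ubiquitin-like modifier, stood at 85.9 CPM in Gata3KO and 391 in Wt (-2.19, -2.43 to -1.94). *Bst2*, the antiviral protein tetherin, stood at 281 CPM in Gata3KO and 789 in Wt.

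Smaller counts went the same way. *Zbp1*, a sensor of left-handed nucleic acid, stood at 43.8 CPM in Gata3KO and 183 in Wt. *Oasl2* stood at 69.5 and 246 CPM, and *Rnf213*, a giant ubiquitin ligase, at 84.3 and 295 CPM. Outside the list, *Ifi213* (24.1 and 118 CPM), *Ly6a* (60.5 and 288 CPM) and *Slfn4* (51.5 and 173 CPM) were lower as well. The least different measured genes were *Ddx58*, the RNA sensor RIG-I, at 36 CPM in Gata3KO and 61.5 in Wt (log2 ratio -0.77), and *Trim30a*, at 89.2 and 159 CPM (-0.83). *Ifit2* and *Ifit3*, which the rule limits, stood at 11.9 and 18.8 CPM in Gata3KO and 117 and 111 CPM in Wt.

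*Irf7* had UMIs in 157 of 276 Gata3KO and 140 of 149 Wt barcodes, and *Isg15* in 74 and 106, so the lower sums in Gata3KO went with fewer barcodes that had any. The low-Gpnmb barcodes differed alike, with 351 CPM of *Irf7* in Gata3KO and 1100 in Wt. The list's summed level was 1849 CPM in Gata3KO and 5432 in Wt Gpnmb macrophages, and 2204 in Gata3KO and 6199 in Wt low-Gpnmb barcodes. Muscle transcripts were lower in the Gata3KO sum too, and whether they go with the interferon genes from barcode to barcode was not tested. Among the 177 Gata3KO and 44 Wt barcodes with no UMI of *Acta1*, *Mylpf*, *Tnnc2* or *Ckm* the interferon median was -1.37 and the *Chil3* ratio 4.20. Having no such UMI also depends on depth. In that subset 165 genes were 2-fold higher and 94 lower. The filter was applied anew there and the Wt sum rests on 44 barcodes. These counts are therefore not out of the same genes as the 35 and 88 of 3010.

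The *Isg15* promoter is shown as the window of an interferon-induced gene that was lower (chr4:156200769-156201068, minus strand, same source). The core of the interferon-stimulated response element (GAAA, any 2 bases, GAAA), searched on both strands and in capitals, matched 3 times in overlap, with first bases 78, 72 and 66 before the start. It is found in 3.99% of all promoters of the same length.

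Isg15: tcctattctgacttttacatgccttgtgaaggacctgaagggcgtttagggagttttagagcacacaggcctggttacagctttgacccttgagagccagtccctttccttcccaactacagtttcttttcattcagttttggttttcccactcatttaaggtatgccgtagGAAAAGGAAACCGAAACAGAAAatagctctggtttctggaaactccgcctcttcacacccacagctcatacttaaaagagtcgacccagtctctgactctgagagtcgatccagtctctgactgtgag

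Muscle transcripts were lower in Gata3KO as well. *Acta1*, skeletal actin, stood at 47.4 CPM in Gata3KO and 235 in Wt (log2 ratio -2.31, -2.64 to -1.99), and *Mylpf*, a fast myosin light chain, at 53.2 and 231 CPM. In low-Gpnmb barcodes *Acta1* stood at 108 CPM in Gata3KO and 572 in Wt. Of the Gata3KO barcodes 47 of 276 had 2 or more UMIs of *Acta1*, *Mylpf*, *Tnnc2* and *Ckm*, and of the Wt barcodes 71 of 149 (47.7%). Their part in the other differences was not tested, and the subset above is a description only.

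Lipid-associated genes were mostly higher in Gata3KO, by less than 2-fold. Of 20 measured 18 were higher, 1 past 2-fold (*Spp1*), with a median log2 ratio of 0.43 (0.23 to 0.60). Of all genes at 20 CPM 57% were higher, with a median of 0.06. *Lgals3*, galectin 3, stood at 5755 CPM in Gata3KO and 3858 in Wt, *Fabp5*, a fatty acid carrier, at 3943 and 2590 CPM, *Cd36*, a scavenger receptor, at 209 and 109 CPM, and *Trem2*, the lipid-sensing receptor, at 840 and 729 CPM. *Apoe*, the most abundant of them, stood at 22169 CPM in Gata3KO and 25026 in Wt (-0.17, -0.20 to -0.15). With 5 ranges of *Gpnmb* given equal weight, the list's median was -0.03, and the cause of that change was not tested.

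Lysosomal genes followed the same pattern. Of 27 measured hydrolases 24 were higher in Gata3KO with a median log2 ratio of 0.19 (0.15 to 0.44), and of 25 genes of the proton pump and lysosomal membrane 21 were higher with a median of 0.24 (0.15 to 0.43). Beside them, 57% of all genes at 20 CPM were higher, with a median of 0.06. *Ctsl*, cathepsin L, stood at 658 CPM in Gata3KO and 305 in Wt (1.11, 0.93 to 1.28), *Ctsd* at 6675 and 4303 CPM, *Ctsb* at 9067 and 6792 CPM, and *Ctsk*, the collagen-cutting cathepsin K, at 55.6 and 21.1 CPM (136 and 22 UMIs). *Atp6v0d2*, a pump subunit of fusing macrophages and osteoclasts, stood at 64.6 and 21.1 CPM (1.61, 0.96 to 2.33). With *Gpnmb* ranges weighted alike the hydrolase median was 0.05.

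The window of *Ctsd* is given as an example of a lysosomal promoter (chr7:142387778-142388077, minus strand, same source). The palindromic E-box CACGTG, the core that Mitf and Tfeb recognise, searched on both strands and in capitals, matched with first bases 245 and 98 before the start and is found in 8.09% of promoters.

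Ctsd: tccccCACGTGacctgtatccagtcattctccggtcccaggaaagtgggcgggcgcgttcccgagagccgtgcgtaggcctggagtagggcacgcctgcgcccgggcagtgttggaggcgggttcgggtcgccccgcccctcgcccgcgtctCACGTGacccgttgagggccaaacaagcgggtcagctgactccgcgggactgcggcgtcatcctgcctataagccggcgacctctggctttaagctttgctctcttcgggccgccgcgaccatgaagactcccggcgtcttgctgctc

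Of 10 measured genes of the microphthalmia family and of cell fusion 8 were higher in Gata3KO (median 0.49, -0.03 to 1.36), beside 57% of all genes at 20 CPM. *Mitf* itself stood at 46.6 CPM in Gata3KO and 49.0 in Wt, and *Acp5*, the tartrate-resistant phosphatase, at 319 and 219 CPM. The 2 past 2-fold were *Ctsk* and *Atp6v0d2*. Cholesterol efflux and lipid storage genes were split, 12 of 18 higher (median 0.12), with *Scd2*, a fatty acid desaturase, at 75.7 CPM in Gata3KO and 31.7 in Wt and *Npc2* at 1288 and 1416 CPM. Of the 6 measured cholesterol synthesis genes 3 were higher and 3 lower.

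Genes for the uptake of dead cells went both ways. Of 17 measured 12 were higher in Gata3KO (median 0.42, -0.27 to 0.51), beside 57% of all genes at 20 CPM. The complement bridges *C1qa*, *C1qb* and *C1qc* were lower, *C1qb* with 2890 CPM in Gata3KO and 3475 in Wt. The receptor *Mertk* stood at 117 and 70.1 CPM, its relative *Axl* at 148 and 194 CPM, and *Gas6*, the ligand both bind, at 76.5 and 101 CPM. Of 10 measured complement genes 5 were higher and 5 lower, and *Cfb*, factor B, was the 1 past 2-fold, at 28.2 CPM in Gata3KO and 92.2 in Wt.

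Of 13 measured repair factors 10 were higher in Gata3KO, beside 57% of all genes at 20 CPM. Their median was 0.58, with an interval of -0.13 to 0.83 that holds 0. *Igf1*, insulin-like growth factor 1, stood at 177 CPM in Gata3KO and 114 in Wt (log2 ratio 0.63, 0.34 to 0.94). *Tgfb1* stood at 398 and 266 CPM, *Pdgfa* at 49.1 and 21.1 CPM, and *Grn*, progranulin, at 2032 and 2390 CPM. *Gdf3*, a factor macrophages make for muscle repair, stood at 50.3 CPM in Gata3KO and 27.9 in Wt. Ferritin genes were high in both libraries and higher in Gata3KO, *Fth1* with 11984 CPM against 9333 in Wt and *Ftl1* with 10870 against 7290, while the iron exporter *Slc40a1* had 20 UMIs (8.18 CPM) in Gata3KO and 31 UMIs (29.8 CPM) in Wt. Of the 17 measured iron and haem genes 11 were higher and 2 past 2-fold lower (*Slc40a1* and *Spic*), and of the 12 Nrf2 targets 5 were higher and 7 lower.

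The alternative activation list did not move as 1 group. For the counts in this paragraph, 57% of all genes at 20 CPM were higher in Gata3KO. Of 10 measured genes 5 were higher and 5 lower in Gata3KO (median 0.05, -0.34 to 0.74). *Chil3* was the 1 past 2-fold higher and *Clec10a*, a galactose-binding lectin, the 1 past 2-fold lower, with 14.3 CPM in Gata3KO and 39.4 in Wt. *Mrc1*, the mannose receptor, stood at 103 CPM in Gata3KO and 67.2 in Wt, and *Il4ra*, the receptor for IL-4 and IL-13, at 107 and 108 CPM. *Arg1*, arginase 1, had 13 UMIs in Gata3KO (5.32 CPM) and 0 in Wt. Thinned to 2000 UMIs, 3 of 276 Gata3KO and 0 of 149 Wt barcodes had one at that depth. Of the IL-33 receptor pathway with *Ucp2*, 8 genes were measured, 1 higher and 7 lower, none past 2-fold (median -0.20, -0.58 to 0.09). *Ucp2*, a mitochondrial uncoupling protein, was that 1 gene, at 550 CPM in Gata3KO and 517 in Wt (0.09, -0.06 to 0.24), and *Nfkb1* stood at 99.4 and 122 CPM.

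Inflammatory mediators were split as well, 10 of 17 higher (median 0.11, -0.09 to 0.51). For the counts in this paragraph, 57% of all genes at 20 CPM were higher in Gata3KO. Besides *Il1b*, *Osm*, oncostatin M, was past 2-fold higher at 42.1 CPM in Gata3KO and 17.3 in Wt (103 and 18 UMIs). *Ccl3* stood at 257 and 193 CPM, *Ccl9* at 97.3 and 164 CPM, and *Il18* at 25.8 and 44.2 CPM. Antigen presentation genes outside the rule were lower in 11 of 14 cases (median -0.33, -0.86 to 0.03), among them *Ciita*, the class II regulator, at 48.7 CPM in Gata3KO and 98.0 in Wt, and *Tap1*, the peptide pump, at 87.1 and 191 CPM. *Ccl8* and *Ccl12*, chemokines of resident macrophages, stood at 68.7 and 2.86 CPM in Gata3KO and at 159 and 32.7 CPM in Wt, and *F13a1*, a clotting factor of such cells, at 90.4 CPM in Gata3KO and 28.8 in Wt.

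Energy genes differed little. For all counts in this paragraph, 57% of all genes at 20 CPM were higher in Gata3KO. Nuclear genes of oxidative phosphorylation were higher in Gata3KO in 57 of 75 cases with 0 past 2-fold and a median log2 ratio of 0.12 (0.09 to 0.19), and that median was negative under 4 alternatives. Glycolysis genes had 11 of 16 higher (median 0.11), tricarboxylic acid cycle genes 11 of 18 (0.06), fatty acid oxidation genes 10 of 16 (0.08) and the mitochondrial genome 8 of 13 (0.09). *Gapdh* stood at 890 CPM in Gata3KO and 640 in Wt, and *Pgam1* at 224 and 140 CPM. Early-response and heat shock genes were higher in 15 of 20 cases (0.31, 0.05 to 0.55), *Zfp36* with 352 CPM in Gata3KO and 183 in Wt. The matrix list was higher in 9 of 12 (0.38, -0.27 to 0.87). The neutrophil collagenase gene *Mmp8*, of the matrix and neutrophil lists, stood at 24.1 CPM in Gata3KO (59 UMIs) and 6.72 in Wt (7 UMIs). Tissue-resident macrophage genes had 7 of 11 higher (0.06), monocyte-enriched genes 8 of 14 (0.32), macrophage identity genes 8 of 14 (0.08) and apolipoprotein and selenoprotein genes 7 of 11 (0.07). Of the 28 lists 16 had medians of both signs over the alternatives tried, the tissue-resident list from -0.18 to 0.55 and the monocyte-enriched list from -0.17 to 0.38, so their directions depend on the processing.

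**Figure D4:**
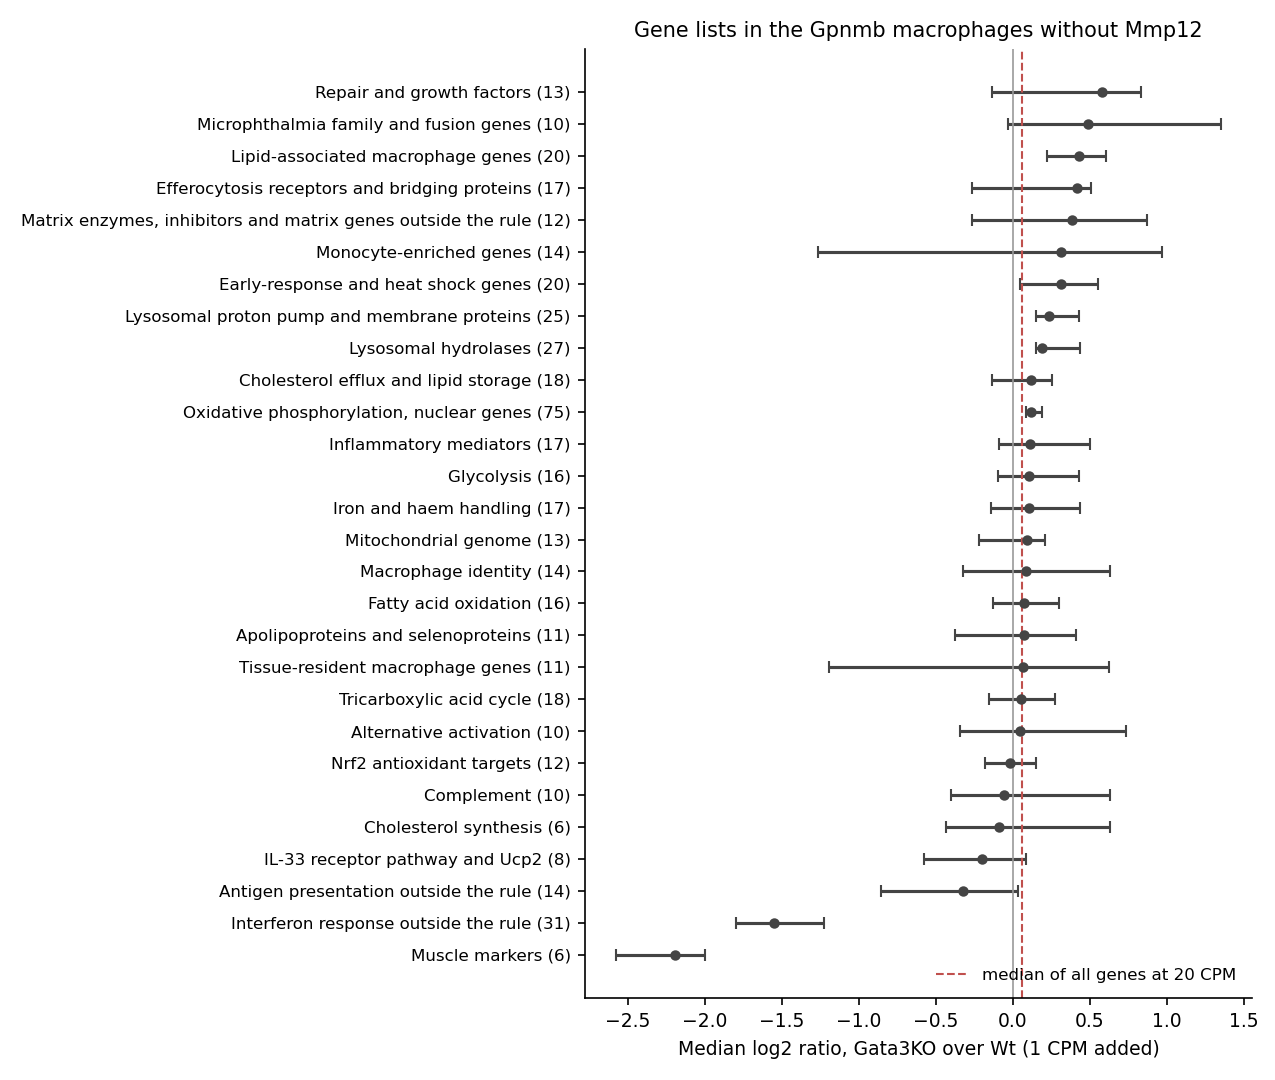
Median log2 ratio, Gata3KO over Wt with 1 CPM added, of each gene list with 6 or more measured genes (number in brackets), with 95% order-statistic intervals over genes and the median of all genes (0.06) as a dashed line. The interferon (-1.55) and muscle (-2.19) lists lie apart from the rest.

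Along the range of *Gpnmb* the cells formed a gradient, in which some lysosomal and lipid genes climbed in both libraries and others did not. The barcodes were split at 5, 10, 20 and 40 *Gpnmb* UMIs per 10000, which gave 39, 62, 55, 64 and 56 Gata3KO and 30, 45, 37, 27 and 10 Wt barcodes. *Fabp5* stood at 382, 1133, 1661, 2716 and 8696 CPM from the lowest to the highest range in Gata3KO and at 1482, 1441, 2602, 3642 and 5958 CPM in Wt. *Lgals3* stood at 1715, 1740, 2549, 5258 and 11322 CPM in Gata3KO and at 2316, 1817, 3306, 5384 and 11084 CPM in Wt, nearly the same in both libraries from 20 per 10000 up. *Ctsd* climbed from range to range in each library, to 9327 CPM in Gata3KO and 7397 in Wt. *Cd63*, *Cd68*, *Ctsb*, *Fth1* and *Trem2* were higher in the top range than in the lowest in both libraries, *Cd68* with 1764 against 464 CPM in Gata3KO and 1855 against 493 in Wt. *Apoe* stood at 20003 CPM in the lowest and 20444 in the top range in Gata3KO, and at 18637 and 25334 in Wt. *Selenop* was lower in the top range, with 1132 against 1709 CPM in Gata3KO and 757 against 912 in Wt. *C1qa* was lower there too, with 811 against 1859 CPM in Gata3KO and 1513 against 1816 in Wt. *Lpl* in Wt stood at 501 CPM in the lowest range, 250 in the next to top and 1439 in the top one. The top Wt range holds only 10 barcodes. In the range below it, with 27 barcodes, Wt *Fabp5*, *Lgals3*, *Ctsd* and *Cd68* (1257 CPM) were already above the lowest range.

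Other values moved along the same range. The median depth in the top range was 13612 UMIs in Gata3KO and 9129.5 in Wt, against 6870 in Gata3KO and 6600.5 in Wt in the lowest, and the median mitochondrial share there was 6.68% in Gata3KO and 6.57% in Wt, against 13% and 10.4%. *Gm42418*, a transcript that overlaps ribosomal RNA repeats, took 1.78% of the UMIs in the top range in Gata3KO and 2.84% in Wt, against 21.2% and 21.0% in the lowest. Their part in the gradient was not tested.

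*Spp1* climbed along the ranges in Gata3KO, and in Wt it was higher in the top range than in the lowest by less. That difference between the libraries was not tested. *Spp1* stood at 897, 1413, 2492, 3049 and 6248 CPM along the ranges in Gata3KO and at 1290, 1648, 1408, 1718 and 1801 CPM in Wt, so it was lower in Gata3KO in the lowest 2 ranges and higher in the upper 3. *Il1b* was highest in the lowest range in Gata3KO, at 545 CPM against 119 in the top range, and stayed between 33.6 and 111 CPM in Wt. *Cx3cr1* went down along the ranges in Gata3KO, from 589 CPM in the lowest to 178 in the top one, and stayed between 229 and 330 CPM in Wt. *Chil3* stood between 210 and 488 CPM in every Gata3KO range and between 0 and 33.6 in the lower 4 Wt ranges, with 213 in the top one. *Gdpd3* stood between 93.2 and 141 CPM in Gata3KO and between 3.83 and 28.8 in Wt. *Irf7* stood between 184 and 339 CPM in Gata3KO and between 533 and 1164 in Wt, and *Isg15* between 43.9 and 166 and between 202 and 480 CPM. In each of the 5 ranges *Chil3* and *Gdpd3* were higher and *Irf7* and *Isg15* lower in Gata3KO.

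**Figure D5:**
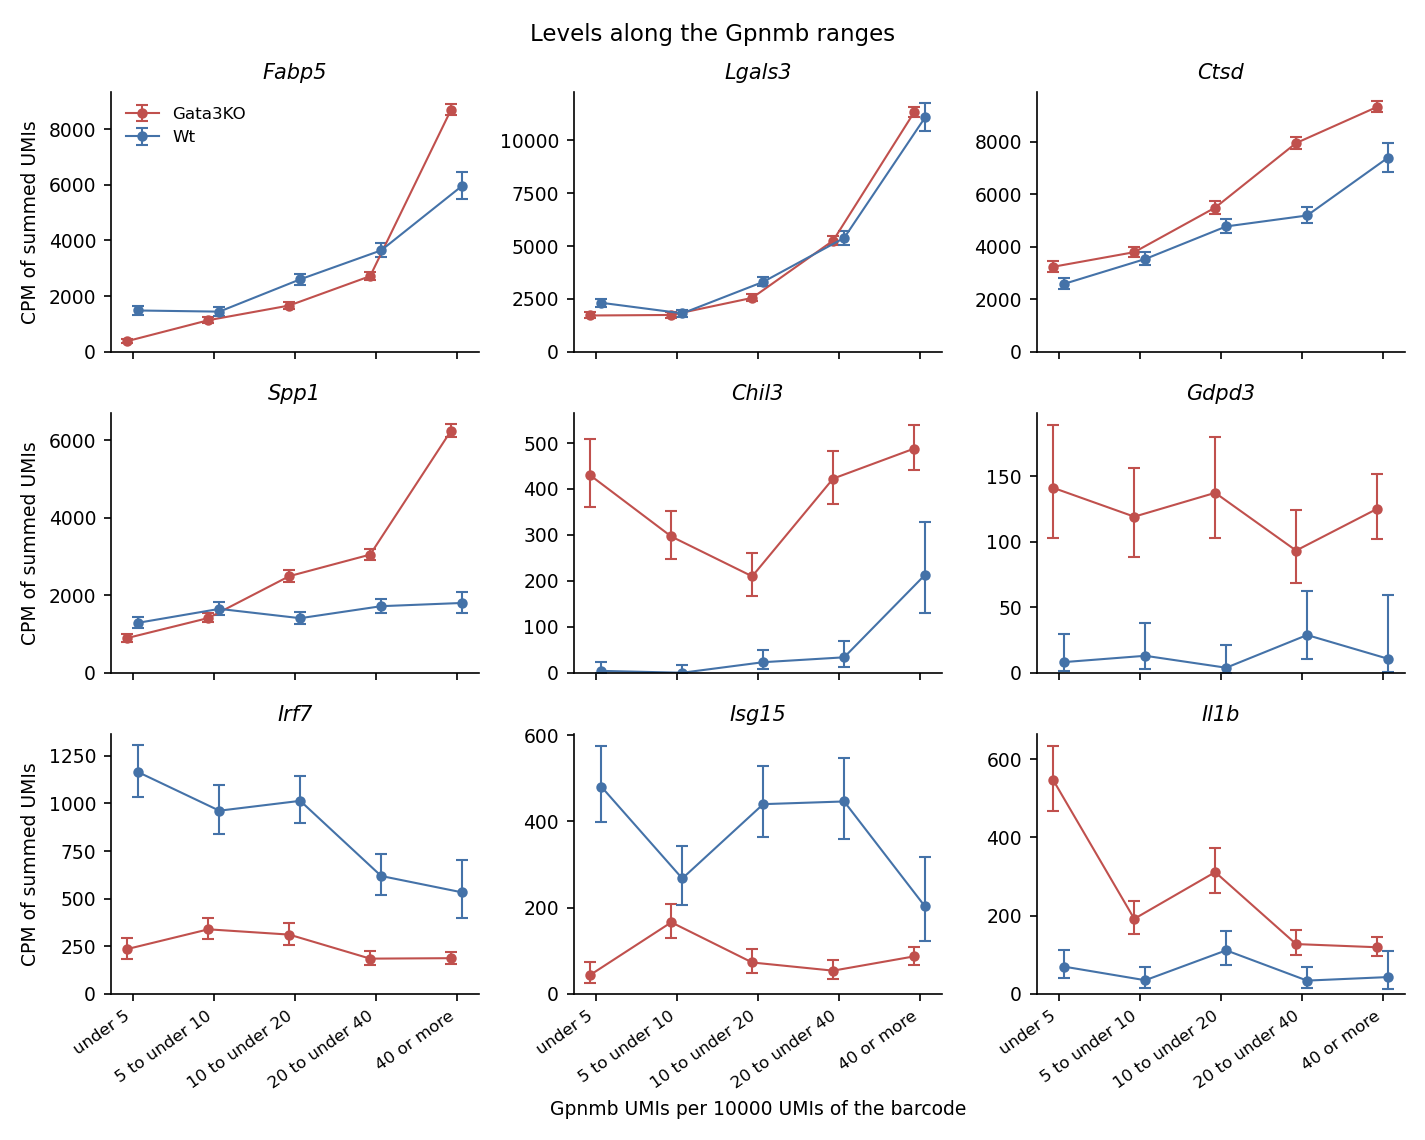
CPM of 9 genes in 5 ranges of *Gpnmb* UMIs per 10000 UMIs, Gata3KO in red and Wt in blue, with exact 95% Poisson intervals. *Fabp5*, *Lgals3* and *Ctsd* climb in both libraries, *Spp1* climbs more in Gata3KO than in Wt, and *Chil3*, *Gdpd3*, *Irf7* and *Isg15* keep the library difference in every range.

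The spread from cell to cell was taken beside counting error. With each barcode thinned to 3000 UMIs, the Fano factor (variance over mean, 1 for pure counting error) had a median of 1.12 in Gata3KO and 1.11 in Wt over 3355 genes. *Apoe* had the largest, 53.3 in Gata3KO and 58.2 in Wt. *Malat1*, a nuclear noncoding transcript, had 42.8 and 43.4, and *Tmsb4x*, an actin-binding peptide, 24.4 and 18.7. *Fth1* had 25.2 and 26.2, *Lyz2* 22.2 and 17.3, *Spp1* 17.7 and 15.4, *Lgals3* 19.4 and 14.2, and *Fabp5* 21.8 and 11.9. *Ccl8* was patchy, with UMIs in 25 Gata3KO and 18 Wt barcodes a Fano factor of 13.1 and 15.3, and 36.9% of its Gata3KO and 35.8% of its Wt UMIs in 1 barcode each. *Gpnmb* itself had 6.45 and 4.42, and *Trem2* had 2.25 and 2.30. Highly expressed genes reach larger values of this measure, and it is given as a description.

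Against low-Gpnmb barcodes, the Gpnmb macrophages had more lysosomal, lipid-handling and ferritin transcripts in both libraries. This contrast uses *Gpnmb*, the gene of the rule, and its depth differs, so it is descriptive. Of 3260 genes, 156 were 2-fold or more higher in both libraries (4.79%) and 31 lower (0.951%). Over all these genes the median log2 ratio was 0.26 in Gata3KO and 0.27 in Wt. *Gm42418* took 9.45% of UMIs in Gata3KO and 13% in Wt Gpnmb macrophages, against 24.9% in Gata3KO and 26.7% in Wt low-Gpnmb barcodes. With *Gm42418*, *Gm26917*, *AY036118* and *Malat1* left out of the totals the counts were 66 and 58. *Fabp5* stood at 3943 CPM against 149 in Gata3KO (log2 ratio 4.72) and at 2590 against 416 in Wt (2.64). *Spp1* had log2 ratios of 2.91 in Gata3KO and 2.55 in Wt, *Lgals3* 2.75 and 2.10, *Cd68* 2.18 and 2.17, *Fth1* 1.90 and 1.83, *Vat1* 2.83 and 1.96, and *Gla*, alpha-galactosidase, 1.90 and 1.95. *Il18bp*, the decoy receptor for interleukin 18, had 2.17 and 2.09.

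Of genes known from monocytes, some were lower than in low-Gpnmb barcodes and some were not. *Ly6c2* stood at 306 CPM against 306 in Gata3KO and at 249.8 against 306 in Wt. *Plac8* stood at 31.5 CPM against 271 in Gata3KO and at 85.5 against 523 in Wt. *Sparc*, *Traf1*, *Il4i1*, *Gbp2*, *Filip1l* and *Tmem176a* were lower in both libraries, as were the muscle genes *Acta1*, *Tnnc2* and *Tnnt3*. In the low-Gpnmb sets 1 barcode gave 65.4% of the *Sparc* UMIs in Gata3KO and 60% in Wt. *Il4i1* had 9 against 10 UMIs in Gata3KO, of which 88.9% and 80% came from 1 barcode each. Dendritic cell genes had 2 or more UMIs in 3 of 145 Gata3KO and 13 of 223 Wt low-Gpnmb barcodes. *Ccr2*, the receptor by which monocytes enter tissue, stood at 211 CPM against 533 in Gata3KO and at 273 against 440 in Wt. Of all 5986 genes at 20 CPM, 65.3% were higher than in low-Gpnmb barcodes in Gata3KO and 73.6% in Wt, with medians of 0.22 and 0.27, or -0.08 and 0.0020 with the 4 noncoding transcripts left out of the totals. Of the 20 lipid-associated genes 20 were higher in Gata3KO and 19 in Wt, with medians of 1.80 and 1.40, or 1.5 and 1.12 with those transcripts left out. Of 27 hydrolases 27 and 26 were higher (1.5 and 1.18, or 1.20 and 0.91), of 75 oxidative phosphorylation genes 75 and 71 (0.85 and 0.45, or 0.54 and 0.18), and of 31 interferon genes 7 and 4 (-0.34 and -0.19, or -0.65 and -0.46).

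Few genes separated the cells from barcodes with *Folr2* or *Cbr2* beyond the genes of that limit. Of 3284 genes, 14 were 2-fold or more higher in both libraries (0.426%) and 14 lower (0.426%), or 23 and 10 with the 4 noncoding transcripts left out of the totals. *Pf4*, a chemokine of resident macrophages, stood at 275 CPM in the Gpnmb macrophages without Mmp12 against 1712 in Gata3KO and at 274 against 1149 in Wt. *Mrc1* stood at 103 against 282 CPM and at 67.2 against 225 CPM, *Ctsl* at 658 against 1439 and at 305 against 853 CPM, and *Ccl8* at 68.7 against 240 and at 159 against 402 CPM. *Il1b* was higher, with 219 against 95 CPM in Gata3KO and 62.4 against 22.1 in Wt, as were *Smad7* and *Ccrl2*. The sets differed in depth, with medians of 6022.5 against 16366 UMIs in Gata3KO and 5575 against 9952 in Wt.

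Barcodes with *Mmp12* and every other limit met numbered only 16 in Gata3KO and 8 in Wt, and 1 Wt barcode held 41.2% of the Wt UMIs and 1 Gata3KO barcode 14.3% of the Gata3KO UMIs. Of 3662 genes 55 were 2-fold or more higher in the cells without *Mmp12* in both libraries (1.5%) and 60 lower (1.64%), or 71 and 43 with the noncoding transcripts left out. *Cd9*, a tetraspanin of lipid-associated macrophages, stood at 420 CPM without against 1185 with *Mmp12* in Gata3KO and at 264 against 1726 in Wt. *Atp6v0d2* stood at 64.6 against 289 CPM in Gata3KO and at 21.1 against 325 in Wt. *Il7r*, *Fabp4*, *Fn1*, *Clec4d* and *Gadd45g* were lower without *Mmp12* too. In the set with *Mmp12*, 1 barcode gave 42.5% of the *Cd9* UMIs in Gata3KO and 73.1% in Wt, 34.3 and 78.8% of *Atp6v0d2*, 35.4 and 100% of *Clec4d*, 45 and 82.6% of *Gadd45g* and 94.1 and 95.8% of *Fn1*, so these values describe few cells. *Stab1*, a scavenger receptor, stood at 387 against 181 CPM in Gata3KO and at 358 against 158 in Wt. *Ccr2*, *Mrc1*, *Ier3* and *Hspa1a* were higher as well, on few UMIs in the Wt set with *Mmp12*. That set had 13 UMIs of *Ccr2*, 7 of *Ier3*, 3 of *Mrc1* and 3 of *Hspa1a*. The interval of the Wt *Mrc1* log2 ratio reached down to -0.42, which leaves its direction in Wt unsettled. With *Mmp12*, 1 barcode gave 69.2% of the Wt *Ccr2* UMIs, 57.1% of the Wt *Ier3* UMIs and 95% of the Gata3KO *Hspa1a* UMIs. Without *Mmp12*, 1 barcode gave 46.7% of the Wt *Ier3* UMIs. *Mmp12*, which defines the contrast, stood at 5.32 CPM against 659 in Gata3KO and at 3.84 against 5227 in Wt.

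Some counts are uncertain because related genes may share reads. This holds for *Chil3*, *Hspa1a*, the ferritin genes, the *Ly6*, *Ccl*, *Ifit* and *Ifi200* families and *Ifi27*, and the sources used here do not say how such reads were assigned.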

How the data were processed

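Droplet single-cell RNA-seq of 2 libraries, 1 for Gata3KO and 1 for Wt, was analysed from the deposited count matrices (UMIs of each gene in each barcode), which the authors made from 10x Single Cell 3' v3 reads, per the labels. The submitters' processing notes name Cell Ranger 3.0.1, Seurat 3.0.2, R 3.6.1 and the build mm10, with no settings. The counts are raw, and the files also hold barcodes under the 3000 UMIs used here. Ribosomal and mitochondrial genes were kept in the totals. Members and gene lists were chosen with earlier results of these data known.

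Counts were summed per library over the chosen barcodes and scaled to CPM. Log2 ratios have exact conditional binomial intervals, with a count of 0 set to a floor of 3. List ratios add 1 CPM, over genes with 20 CPM in either library. Named genes are the 12 largest ratios each way with 100 CPM in either library and 50 UMIs, passing over predicted genes, and the 2 highest, 2 lowest and 3 most abundant of each list, together with a fixed panel of 20 genes, and further list members were chosen after their values were seen. Values of 1 gene are not reported here. Shares have exact Clopper-Pearson intervals. Intervals and limits cover counting error only. Thinning drew UMIs without replacement with a fixed seed. Scrublet in scanpy 1.11.5 called few doublets (0.134% of Gata3KO and 0.23% of Wt barcodes), so it may not have worked. Promoters came from RefSeq, GRCm38.p6. Scripts ran in Python 3.11.15 with numpy 2.4.6, scipy 1.17.1 and pandas 2.3.3, and were tested on simulated data.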

Additional observations from a re-analysis of the deposited data

Results flagged for a closer look

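For 9 genes the Gpnmb macrophages without Mmp12 lay past 2-fold to opposite sides of another set of barcodes in the 2 libraries. None of these differences between the libraries was tested. Against low-Gpnmb barcodes, *Fabp4*, a fatty acid carrier, had a log2 ratio of 2.38 in Gata3KO and -1.46 in Wt, and 96.1% of its UMIs in the Wt low-Gpnmb set came from 1 barcode.

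Against barcodes with *Mmp12*, of which there were 16 in Gata3KO and 8 in Wt, *Cdk6* had 1.23 in Gata3KO and -1.24 in Wt, *Lat2* -1.16 in Gata3KO and 1.01 in Wt, and *Tmem219* -1.18 in Gata3KO and 2.03 in Wt. The monocyte gene *Ly6c2* had -1.44 in Gata3KO and 3.66 in Wt. Few UMIs lie behind some of these in the sets with *Mmp12*: *Ly6c2* had 2 in Wt, both from 1 barcode, *Tmem219* 2 in Wt, *Lat2* 9 in Wt, and *Cdk6* 6 in Gata3KO and 9 in Wt. The chemokine *Ccl2* had 1.16 in Gata3KO and -1.43 in Wt, and *Ccl6* 1.74 in Gata3KO and -3.03 in Wt. Of the UMIs in the Wt set with *Mmp12*, 1 barcode gave 96% for *Ccl2* and 95.6% for *Ccl6*.

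Against barcodes with *Folr2* or *Cbr2*, *Cd5l*, a secreted protein of tissue macrophages, had -1.10 in Gata3KO and 1.88 in Wt, and the chemokine *Ccl5* 2.54 in Gata3KO and -3.25 in Wt. Among the Gpnmb macrophages without Mmp12, 1 barcode gave 57.1% of the *Cd5l* UMIs in Gata3KO and 1 gave 55.6% in Wt, and 1 gave 60.4% of the *Ccl5* UMIs in Gata3KO.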

How the results depend on the processing

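The larger share of Gpnmb macrophages without Mmp12 in Gata3KO kept its direction under every alternative tried. The difference of 14.2 points was 9.7 with a mitochondrial limit of 10%, 20.02 with 30%, 18.6 with the rule on barcodes thinned to 3000 UMIs, 3.51 over all deposited barcodes and 7.449 over barcodes with 2 or more *Gpnmb* UMIs. The 123 genes past 2-fold between the libraries were 233 with a filter of 20 CPM, 61 with 100 CPM and 259 in barcodes without muscle transcripts. The 115 genes past 2-fold against barcodes with *Mmp12* were 67 with thresholds per 10000 UMIs, 203 with the rule on thinned barcodes, 216 with 20 CPM and 57 with 100 CPM. In both comparisons the genes that pass the filter change with the alternative, so these counts are not out of the same genes.

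The interferon median stayed between -1.79 and -1.28 over 18 alternatives. The hydrolase median of 0.19 was 0.11 with 4 or more *Gpnmb* and 0 *Mmp12* UMIs, 0.10 with median-of-ratios scaling, 0.13 with totals without *Gm42418*, *Gm26917*, *AY036118* and *Malat1*, and 0.048 with 5 ranges of *Gpnmb* weighted alike. The lipid-associated median of 0.43 was 0.17 with cells thinned to 3000 UMIs and -0.034 with the *Gpnmb* ranges weighted alike, and the inflammatory median of 0.11 was 0.68 with the rule on thinned barcodes. The oxidative phosphorylation median was -0.041 with a mitochondrial limit of 30%, -0.050 with every cell weighted alike, -0.10 with thinned cells and -0.043 with the *Gpnmb* ranges weighted alike. The cause was not tested. Of the log2 ratios of named genes 62 moved and 298 did not, and of the shares of cells with a UMI 63 moved and 17 did not. For those shares the alternatives were thinning to 1000 UMIs and no thinning, in place of 2000. Depth largely sets such shares, so their moves were likely beforehand and say little about stability. The *Gpnmb* ranges, a threshold of 10 *Gpnmb* UMIs per 10000, the muscle subset and the totals without noncoding transcripts were chosen after seeing the data. With *Mmp12* at 0 the contrast against barcodes with *Mmp12* was not run. No paired analysis was possible because each genotype has 1 library.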
